A study of Arabidopsis thaliana with 15 samples.

Results

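The ZRT/IRT-like proteins (ZIP) are metal transporters of Arabidopsis thaliana, and transcripts of 10 genes of the family were described here in seedlings of a mutant of the chromatin remodeller SPLAYED (SYD). The genes were ZIP1 to ZIP7, ZIP9, ZIP11 and IRT3, which make up 10 of the 33201 genes listed in the comparison. They were chosen by family name and locus, with their levels in wild type and mutant from this same comparison in view. Their levels, differences and calls are therefore given as a description, and nothing is supported with them.

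Whole seedlings were 14 days old and had grown on plates with a cycle of 16 h light and 8 h dark. RNA was sequenced from wild type Col-0 (WT, 3 libraries) and from syd-5 in the Col-0 ecotype (3 libraries). SYD is the gene for a SWI/SNF-type remodelling ATPase. The only mutant allele of SYD profiled for RNA was syd-5, and no second mutant allele or rescued line was included. The other 9 libraries, all of chromatin, were not analysed here.

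ZIP proteins sit in membranes and move zinc, iron, manganese and related divalent metals into the cytoplasm, from outside the cell or from compartments inside it. In Arabidopsis several ZIP genes are induced when zinc is short, through the transcription factors bZIP19 and bZIP23, which bind an element in their promoters. Many members are known for their action in roots, where metals are taken up and loaded towards the shoot, and whole seedlings mix roots with leaves.

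The authors' comparison gave 1 value per gene and genotype, read as FPKM, fragments per length of transcript and per sequencing depth. It gave no value per library, so that no spread between replicates stands behind a level, and sequencing depth is unknown. In this text a gene rose, fell or was called only where its q-value, as listed in the authors' deposited table, did not exceed 0.05. The smallest p-value in that table, 5e-05, was shared by 2831 tested genes. These genes all have q = 0.000351, which therefore does not rank them. The targeted gene SYD fell 5.17-fold, from 13.1 FPKM in WT to 2.53 FPKM in syd-5. The summed FPKM of all genes was 865406 in WT and 948154 in syd-5, and the median log2 difference over the 19868 tested genes was -0.02.

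Of the 10 ZIP genes 4 fell in syd-5 (ZIP3, ZIP5, ZIP7 and ZIP11), 1 rose (ZIP6), 4 were tested and not called (ZIP1, ZIP2, ZIP4 and IRT3), and ZIP9 was not tested by the authors. Among all tested genes 32.1% were called, 18.0% as lower and 14.1% as higher. The member just inside the threshold was ZIP6, with q = 0.0139, and the member just outside was ZIP2, with q = 0.0618, both in the authors' deposited table. At an unadjusted p under 0.05 in that table, 4 members were lower and 3 were higher (ZIP2, ZIP4 and ZIP6). With a limit of 0.01 on q from the authors' deposited table, 4 members were lower, where 13.3% of tested genes were, and 0 were higher, where 9.31% were. With the limit of 0.05 and at least a 2-fold difference, ZIP3 and ZIP7 were lower (2 members, 8.27% of tested genes) and 0 members were higher (3.29%).

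**Figure D1:**
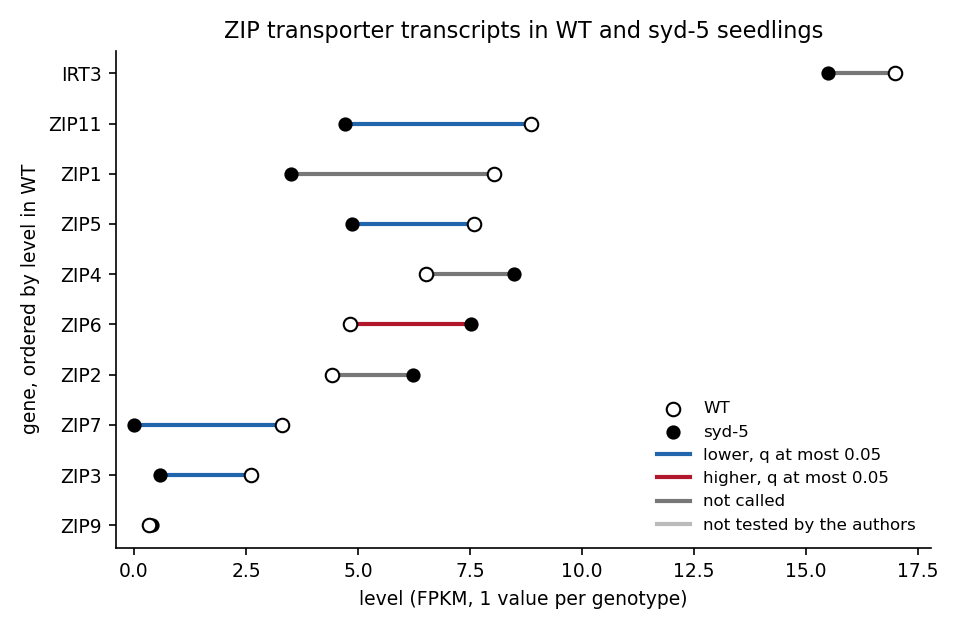
Level of each ZIP gene in FPKM (horizontal axis), with open circles for WT, filled circles for syd-5 and a line joining the single value of each genotype. IRT3 is the most abundant in both genotypes, ZIP7 reaches 0 in syd-5, and ZIP2, ZIP4 and ZIP6 lie to the right of their WT values.

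ZIP7 and ZIP3 showed the largest relative losses among the members. ZIP7 (AT2G04032, TAIR10 chromosome 2, 1289832 to 1291383), whose product can carry iron, zinc and manganese when made in yeast, stood at 3.31 FPKM in WT and was listed at 0 in syd-5 (authors' deposited table, q = 0.000351). No fold is given against a value of 0. In all 45 called genes were listed at 0 in syd-5. ZIP3 (AT2G32270, chromosome 2, 13704221 to 13706860), a zinc transporter gene, fell 4.58-fold, from 2.62 FPKM in WT to 0.573 FPKM in syd-5 (log2 -2.19; authors' deposited table, q = 0.000351). Of tested genes with a finite ratio, 2.59% had a more negative log2 difference than ZIP3. Both genes were among the less abundant members already in WT, where 21.0% of tested genes lay below ZIP7 and 17.9% below ZIP3.

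ZIP11 and ZIP5 fell by less, from higher levels. ZIP11 (AT1G55910, chromosome 1, 20906134 to 20907413), whose product supports zinc uptake in yeast, ranked 2 among the members in WT at 8.87 FPKM and fell 1.88-fold to 4.72 FPKM (log2 -0.91; authors' deposited table, q = 0.000351). ZIP5 (AT1G05300, chromosome 1, 1545106 to 1547849), a gene of the zinc-deficiency response, fell 1.56-fold, from 7.58 FPKM to 4.86 FPKM (log2 -0.64; authors' deposited table, q = 0.00641). In syd-5 these levels lay next to each other, with ZIP5 above ZIP11, the reverse of their order in WT.

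ZIP6 was the one member that rose. ZIP6 (AT2G30080, chromosome 2, 12838730 to 12840112), a metal transporter gene, went from 4.82 FPKM in WT to 7.52 FPKM in syd-5, a 1.56-fold rise (log2 0.64; authors' deposited table, q = 0.0139). The size of this rise matched that of the fall of ZIP5 on the log2 scale. Along chromosome 2, ZIP6 lies 0.776 Mb from SYD, ZIP3 lies 1.64 Mb from it and ZIP7 lies 10.8 Mb from it. The part of linkage to the mutant allele in these values was not tested.

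ZIP2 and ZIP4 had higher values in syd-5 without passing the threshold. ZIP2 (AT5G59520, chromosome 5, 23991253 to 23992798), linked to manganese and zinc movement in the root vasculature, stood at 4.42 FPKM in WT against 6.24 FPKM in syd-5 (log2 0.50; authors' deposited table, q = 0.0618). ZIP4 (AT1G10970, chromosome 1, 3665087 to 3667139), a widely used marker of zinc deficiency, stood at 6.52 FPKM and 8.48 FPKM (log2 0.38; authors' deposited table, q = 0.0919). By level ZIP4 ranked 5 among the members in WT and 2 in syd-5.

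IRT3 was the most abundant ZIP gene of the 10 in both genotypes. IRT3 (AT1G60960, chromosome 1, 22445310 to 22447214), which encodes a zinc and iron transporter of the plasma membrane, stood at 17.0 FPKM in WT against 15.5 FPKM in syd-5 (log2 -0.13; authors' deposited table, q = 0.559). It was the one member above the median tested gene, which lay at 13.1 FPKM in WT against 12.3 FPKM in syd-5. ZIP9 (AT4G33020, chromosome 4, 15932603 to 15934267), another zinc-deficiency gene, had 0.329 FPKM in WT against 0.405 FPKM in syd-5 and was not tested by the authors. Only 0.966% of tested genes had a WT level below that of ZIP9.

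ZIP1 had a larger difference than ZIP11 or ZIP5 and yet was not called. ZIP1 (AT3G12750, chromosome 3, 4049515 to 4053201), linked like ZIP2 to zinc and manganese movement in roots, stood at 8.04 FPKM in WT against 3.51 FPKM in syd-5 (log2 -1.19; authors' deposited table, q = 0.157). The table lists ZIP1 with the same span as ALIS1 (AT3G12740), which encodes a subunit of lipid flippases, so that the value of ZIP1 is less certain. ALIS1 was far more abundant and fell from 92.8 FPKM in WT to 65.3 FPKM in syd-5 (log2 -0.51; authors' deposited table, q = 0.00227). The log2 difference divided by the test statistic of the authors' deposited table shows how much change that test asked for per unit of its statistic. For ZIP1 this ratio was 1.11, against 0.267 to 0.651 for the 7 other tested members with a finite log2 difference. Of 3081 tested genes within 1.5-fold of the level of ZIP1, 97.8% had a smaller ratio (median 0.335). The ratio is not given here as a standard error, since the sources name no program behind the statistic, and the part of the shared span in it was not tested.

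**Figure D2:**
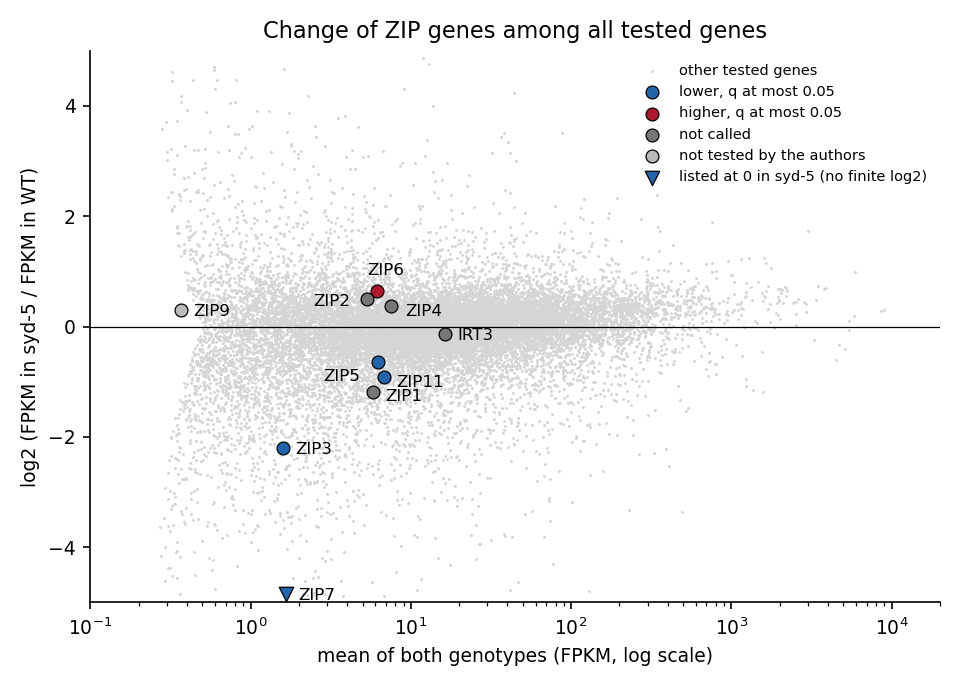
Log2 difference between syd-5 and WT (vertical axis) against the mean FPKM of both genotypes (log scale) for tested genes in grey and the ZIP genes in colour, with ZIP7 as a triangle at the lower edge because it has no finite ratio. Genes beyond 5 on the vertical axis are not drawn; ZIP3 lies lowest of the members with a finite ratio, and ZIP6, ZIP2 and ZIP4 lie above 0.

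Seen as a transcript pool, the family had a slightly lower summed level in syd-5 and a different make-up. The 10 genes summed to 63.5 FPKM in WT against 51.8 FPKM in syd-5, which is 1.23-fold lower (log2 -0.29, or -0.43 with both genotypes scaled to the same FPKM sum). The 4 genes that fell summed to 22.4 FPKM in WT against 10.2 FPKM in syd-5. The other 6 summed to 41.1 FPKM and 41.7 FPKM, a sum in which differences of both directions offset each other. Among them ZIP1 differed by -4.53 FPKM in syd-5, the largest difference in FPKM of the 10 genes. ZIP1 was not called, and its value is less certain because its span is shared, so that the lower sum of the family rests in part on an uncertain value. ZIP2, ZIP4 and ZIP6 together went from 15.8 FPKM in WT to 22.2 FPKM in syd-5. They were put together because each was higher in syd-5, so that the rise of their sum follows from the choice. Only ZIP6 among them was called, and ZIP9, also higher but not tested, was left out. IRT3 held 26.8% of the pool in WT and 29.9% in syd-5. ZIP4 went from 10.3% to 16.4% of the pool, ZIP6 from 7.59% to 14.5% and ZIP2 from 6.97% to 12.0%. ZIP11 went from 14.0% to 9.11%, ZIP1 from 12.7% to 6.78% and ZIP3 from 4.13% to 1.11%. The order by level in WT was IRT3, ZIP11, ZIP1, ZIP5, ZIP4, ZIP6, ZIP2, ZIP7, ZIP3 and ZIP9. In syd-5 it was IRT3, ZIP4, ZIP6, ZIP2, ZIP5, ZIP11, ZIP1, ZIP3, ZIP9 and ZIP7. With 1 value per genotype, whether neighbours in these orders differ beyond their spread cannot be said.

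**Figure D3:**
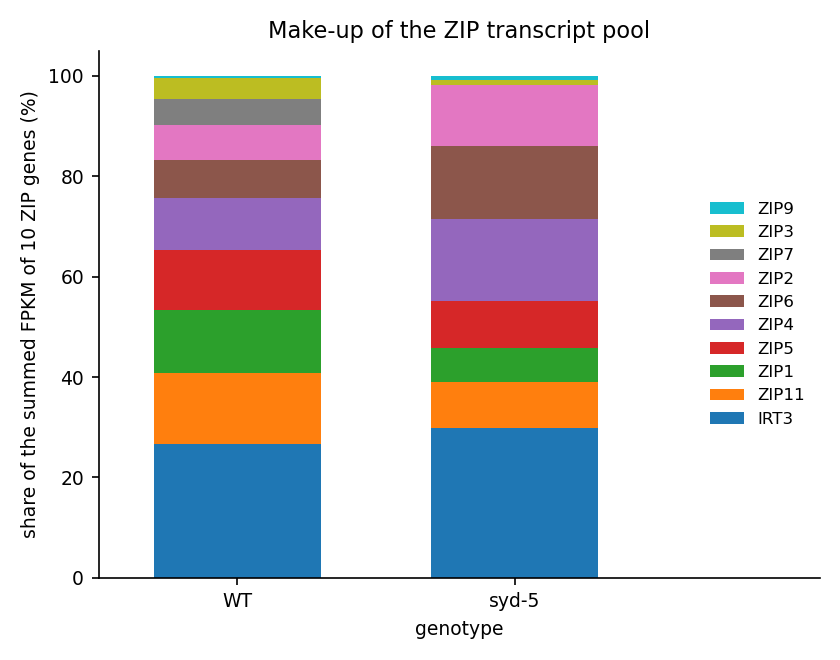
Share of the summed FPKM of the 10 ZIP genes held by each gene (vertical axis, in percent) in WT and in syd-5, with 1 stacked bar per genotype. The segments of ZIP2, ZIP4 and ZIP6 are wider in syd-5, those of ZIP1, ZIP3, ZIP5 and ZIP11 are narrower, and ZIP7 is absent from the syd-5 bar.

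Of the 6 members known to be induced by zinc shortage (ZIP1, ZIP3, ZIP4, ZIP5, ZIP9 and IRT3, a grouping made after the values were seen), 2 fell, 0 rose, 3 were not called and ZIP9 was not tested. The shares over all tested genes were 18.0% lower and 14.1% higher. At an unadjusted p under 0.05 in the authors' deposited table, 1 of the 6 members (ZIP4) was higher and 2 were lower. Their values ran from log2 -2.19 for ZIP3 to 0.38 for ZIP4. Their summed level was 42.1 FPKM in WT against 33.3 FPKM in syd-5. The largest difference within that sum was that of ZIP1 (-4.53 FPKM), which was not called and whose value is less certain. Of the 4 other members 2 fell (ZIP7 and ZIP11), ZIP6 rose and ZIP2 was not called, with a summed level of 21.4 FPKM in WT against 18.5 FPKM in syd-5. The regulators of the response were not called. bZIP19 stood at 21.3 FPKM and 18.2 FPKM (authors' deposited table, q = 0.277), and bZIP23 stood at 4.86 FPKM and 3.78 FPKM (authors' deposited table, q = 0.188). bZIP24, a relative linked to salt stress, stood at 4.04 FPKM and 4.59 FPKM. None of these 3 regulator genes reached an unadjusted p under 0.05 in the authors' deposited table.

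Other genes of the ZIP family were either at or near 0 or not called. IRT1, which encodes the main iron uptake transporter of the root epidermis, was at 0.0357 FPKM in WT but listed at 0 in the mutant, and its neighbour IRT2 was at 0.271 FPKM and 0.279 FPKM. ZIP8 and ZIP10 were listed at 0 in both genotypes, and ZIP12 was at 0.111 FPKM in WT but listed at 0 in the mutant. The authors tested none of these 5 genes. The more distant relatives were tested and not called. AT3G08650 stood at 50.1 FPKM in WT against 52.1 FPKM in syd-5, ZTP29 at 17.0 FPKM and 18.6 FPKM, and IAR1, which was found through its effect on auxin conjugate sensitivity, at 15.7 FPKM and 16.5 FPKM. None of these 3 reached an unadjusted p under 0.05 in the authors' deposited table. Over all 18 ZIP genes listed the sum was 147 FPKM in WT against 139 FPKM in syd-5.

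Among all tested genes 18.0% fell in syd-5. In the list of nicotianamine synthases 2 of 3 tested genes fell, and in the list of metal-ligand transport 5 of 5 fell. The latter list does not hold ZIF1, another ligand transporter gene, which was not called. Nicotianamine is a small metal chelator that keeps zinc, iron and other metals soluble in the plant. Of the 4 genes for its synthases, NAS1 fell 5.05-fold, from 22.0 FPKM in WT to 4.36 FPKM in syd-5 (log2 -2.34), and NAS3 fell 2.23-fold, from 15.5 FPKM to 6.95 FPKM, each with q = 0.000351 in the authors' deposited table. NAS4, a zinc-deficiency gene, stood at 2.03 FPKM and 2.36 FPKM and was not called. NAS2 was at 0.299 FPKM in WT but listed at 0 in the mutant, and was not tested by the authors. All 5 genes of the list for metal-ligand transport fell, against 18.0% of all tested genes, with a median log2 difference of -0.86. The lists were chosen with earlier results of these data known, so that their counts are a description and nothing is supported with them. YSL1, YSL2 and YSL3 encode carriers of metal-nicotianamine complexes. YSL3 fell 2.33-fold, from 15.4 FPKM to 6.61 FPKM, YSL2 fell 1.81-fold, from 10.5 FPKM to 5.81 FPKM, and YSL1 fell 1.53-fold, from 20.5 FPKM to 13.4 FPKM. OPT3, a transporter gene of the phloem that acts in shoot-to-root iron signalling, fell 2.08-fold, from 26.8 FPKM to 12.9 FPKM. FRD3, which encodes an exporter of citrate into the xylem, fell 1.81-fold, from 7.06 FPKM to 3.90 FPKM. Each of these 5 had q = 0.000351 in the authors' deposited table, and the span of YSL2 is shared with another gene.

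Of 4 tested genes for zinc exporters and metal pumps 1 fell, where 18.0% of all tested genes did. PCR2, which encodes a zinc exporter of the plasma membrane, fell 1.85-fold, from 73.8 FPKM to 39.8 FPKM (authors' deposited table, q = 0.000351). The zinc pump genes of xylem loading, HMA2 (4.64 and 5.82 FPKM) and HMA4 (12.4 and 11.1 FPKM), were not called, and neither was the chloroplast pump gene HMA1 (36.0 and 29.7 FPKM), whose span is shared. Of 10 tested genes for vacuolar and secretory transporters 2 fell, near the 18.0% of all tested genes, and 8 were not called, with a median log2 difference of -0.17. NRAMP3, which encodes a transporter that releases iron and manganese from the vacuole, fell 2.87-fold, from 19.2 FPKM to 6.69 FPKM, while its close relative NRAMP4 stood at 19.9 FPKM and 18.5 FPKM and was not called. MTP11, a manganese transporter gene of the secretory pathway, fell 1.75-fold, from 25.2 FPKM to 14.4 FPKM. NRAMP3 and MTP11 each had q = 0.000351 in the authors' deposited table. MTP1, which encodes the zinc loader of the vacuole, had the highest level of that list, at 48.2 FPKM and 40.3 FPKM, and was not called. ZIF1, a transporter gene for vacuolar nicotianamine, stood at 19.5 FPKM and 18.1 FPKM and was not called either.

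Among iron uptake genes 1 of 4 tested rose and 1 fell, beside 14.1% and 18.0% of all tested genes. FRO2, the root ferric reductase gene, rose from 0.352 FPKM to 0.672 FPKM with q = 0.0497, and PYE, a regulator of the iron deficiency response, fell from 12.1 FPKM to 7.87 FPKM with q = 0.00558, both in the authors' deposited table. The call of FRO2 was lost when the adjustment took in all listed genes. Its WT level was low, near that of ZIP9 (0.329 FPKM). The 4 untested genes of the list, BHLH38, BHLH39, BHLH100 and BHLH101, did not exceed 0.364 FPKM in either genotype. BTS, which encodes an iron-binding repressor of the response, had the highest level of the list (25.3 and 26.0 FPKM) and was not called.

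**Figure D4:**
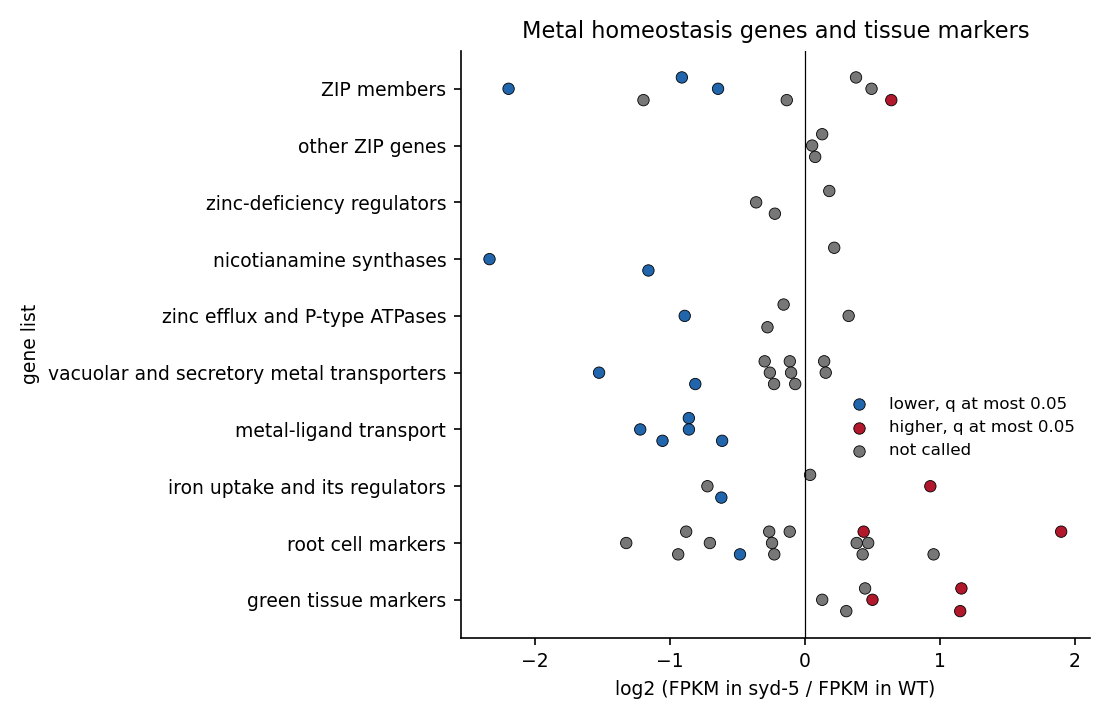
Log2 difference between syd-5 and WT (horizontal axis) for each tested gene with a finite ratio in the ZIP family, the metal homeostasis lists and the tissue markers, coloured by the call. The 5 genes of metal-ligand transport lie left of 0, while the ZIP genes lie on both sides, from -2.19 to 0.64.

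Markers of roots and of green tissue were followed because whole seedlings were used, and in such bulk RNA fewer cells of a type and less RNA per cell cannot be told apart. Of 20 root cell markers 15 were tested, of which CASP2 and SHR rose, PHO1 fell and 12 were not called. At an unadjusted p under 0.05 in the authors' deposited table, 2 were higher and 2 were lower (PHO1 and TIP2;3). The summed level of all 20 was 50.1 FPKM in WT against 49.1 FPKM in syd-5, and 0 of them were listed at 0 in either genotype. Most of that sum came from PHO1, SCR and SHR (14.5, 11.2 and 6.49 FPKM in WT), so that it says little about the other root markers. Of 6 green tissue markers 3 rose (LHCA3, CAB3 and PSBO1), 0 fell and 0 were listed at 0. Their sum went from 15497 FPKM to 20825 FPKM. With an unadjusted p under 0.05 in the authors' deposited table, 4 were higher (the same 3 and CA1) and 0 were lower. Among all tested genes 14.1% rose and 18.0% fell. The root apex markers PLT1, PLT2 and WOX5 were between 0.130 and 0.518 FPKM in WT. The part of tissue make-up in the ZIP values was not tested.

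Of 20 genes flanking the members 16 were tested, of which 4 fell and 1 rose, beside 18.0% and 14.1% of all tested genes. ALIS1, which is listed with the span of ZIP1 and fell, is not counted among them. Among the 7 tested flanking genes of the 5 called members, 2 were called in the same direction and 0 in the opposite one. Next to ZIP7 the pseudogene AT2G04033, 1728 bases away, was at 1.77 FPKM in WT and also listed at 0 in syd-5 (authors' deposited table, q = 0.0146). Beyond that pseudogene 11 entries in a row were listed at 0 in both genotypes. On the other side of ZIP7 the chloroplast chaperone gene CR88 stood at 132 FPKM and 155 FPKM and was not called. Next to ZIP5, AT1G05310 fell 2.01-fold, from 3.73 FPKM to 1.86 FPKM (authors' deposited table, q = 0.00150).

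ZIP2 lay between 2 genes that fell while its own value was higher in syd-5. RTFL5, which encodes a small peptide of the ROTUNDIFOLIA family, fell from 4.14 FPKM to 0.583 FPKM (log2 -2.83; authors' deposited table, q = 0.00433), and AT5G59530 fell from 3.26 FPKM to 1.15 FPKM (log2 -1.50; authors' deposited table, q = 0.000351). ZIP4 and IRT3 each lie beside a gene for ferredoxin, the electron carrier of photosystem I. FD1 lies 47 bases from ZIP4 and stood at 629 FPKM in WT against 602 FPKM in syd-5, not called. FED A lies 87 bases from IRT3 and rose from 1639 FPKM to 2192 FPKM (log2 0.42; authors' deposited table, q = 0.0472). Whether reads of these abundant neighbours reach into the values of ZIP4 and IRT3 was not tested, and the table does not say whether counting used strand.

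**Figure D5:**
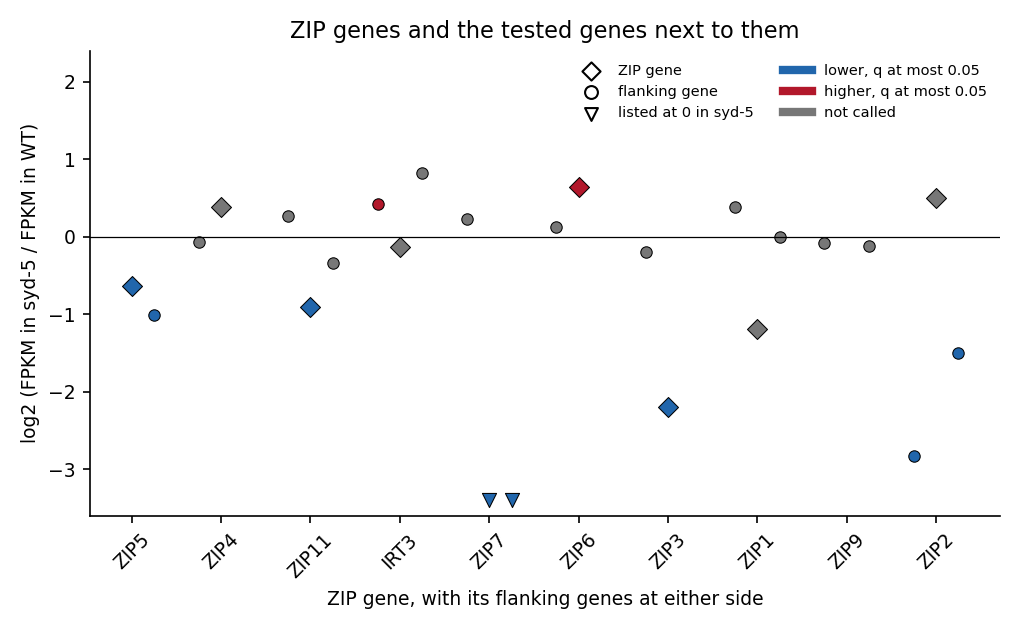
Log2 difference between syd-5 and WT (vertical axis) for each ZIP gene (diamond) and the tested genes at either side (circles), with triangles at the lower edge for genes listed at 0 in syd-5. The triangles are ZIP7 and the pseudogene beside it, and both genes beside ZIP2 lie below 0 while ZIP2 lies above. Untested genes are not drawn.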

How the data were processed

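The authors deposited 1 table that compares syd-5 with WT RNA (3 libraries each). The authors' 2 expression columns, 1 per genotype, were read as FPKM (normalized for length and depth), a unit the file header does not state. The authors' test statistic (score), p-value and q-value stand beside them as deposited. Per the submitters' processing notes, the build was TAIR10 and the tools included TopHat2 (version 2.0.4), Bowtie2 and bedtools, with no role stated. The sources used here do not name the program behind the table. Recomputing q by Benjamini-Hochberg from the 19868 tested genes' p-values gave the deposited values (differences up to 5.22e-07). The design foresaw counts per library; as the table has none, the planned fallback was to use the deposited q, with a limit of 0.05, and to add no test.

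Log2 differences are FPKM in syd-5 over WT with no pseudocount, computed with Python 3.11.15 and pandas 2.3.3. Depth per library is unknown, so that no interval or floor is given, and the labels do not say whether libraries came from separately grown plants. The table's start coordinates were raised by 1 base to count from 1. Symbols came from RefSeq (TAIR10.1; 32208 of 33201 IDs matched) or the usual literature names. A span counts as shared where it overlaps another entry by at least 1 base. MTP3 occurs in the table within an entry that joins several genes and was left out. The members and the 9 other lists were chosen with earlier results of these data known. Named were the members, list genes that were called or had the highest level of their list, and called flanking genes; other names were added after their values were seen. Scripts were checked on simulated data. Alternatives changed the call rule, adjustment, level filter, shared spans, scaling and pseudocount.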

Additional observations from a re-analysis of the deposited data

How the results depend on the processing

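The counts of ZIP genes that fell (4) and rose (1) were the same with the adjustment taken over all listed genes, with a floor of 1 FPKM on the mean and without genes of shared spans. The last 2 rules could not change these counts. All called members have a mean above 1 FPKM, and ZIP1, the only member with a shared span, was not called. With q of at most 0.01 the count of higher members was 0, and with q of at most 0.05 and at least a 2-fold difference it was 0 and the count of lower members was 2, because both rules are stricter by construction. No member with a finite ratio changed direction under the other scalings, which shift all log2 differences alike. A pseudocount added to both genotypes cannot change a direction, so that only sizes were compared there. ZIP3 moved from log2 -2.19 to -1.20 with a pseudocount of 1 FPKM, which weighs most on low values. Scaling to equal FPKM sums shifts every log2 difference by -0.13. In the metal lists the 2-fold rule took the lower genes of ligand transport from 5 to 2, of vacuolar and secretory transporters from 2 to 1, of zinc efflux from 1 to 0 and of iron uptake from 1 to 0. The 1 higher iron uptake gene, FRO2, was lost under that rule, under q of at most 0.01 and under the adjustment over all listed genes. Without shared spans, ligand transport had 4 lower genes. Leaving out single libraries was not run, as the table has no value per library. No paired analysis was possible because the columns carry no replicate. The planned search for the zinc-deficiency element and the protein comparison were not run, since sequences were not used here. Sequencing depth is unknown, so that its effect on low values such as those of ZIP9, ZIP7 and ZIP3 was not measured.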
